A study of Mus musculus with 15 samples.

Results

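Heme, the iron-bearing ring of hemoglobin, cytochromes and catalase, is made in a pathway that starts and ends in the mitochondrion and runs through the cytosol in between. Its 9 genes described here were 7 enzymes and 2 mitochondrial carriers, chosen by name as listed heme pathway members, with earlier results of these data known, out of 45706 genes in the deposited table. All 9 were found in the table and all 9 passed the filter on low counts, as did 18983 genes in all. Expression was followed in lineage-negative (Lin-) bone marrow (BM) cells from the femora of secondary recipients, in 15 RNA sequencing libraries from 4 donor genotypes. WT (n = 3), Puma-/- (n = 4), G3 mTerc-/-Puma+/+ (n = 4) and G3 mTerc-/-Puma-/- (n = 4) donors of 8 to 12 weeks on a C57BL/6J CD45.2 background gave Lin- Sca-1+ Kit+ stem and progenitor cells, which were passed through a primary and then a secondary lethally irradiated CD45.1+ host. Secondary recipients were analysed 16 weeks after transplantation in the study's design. Puma, listed as Bbc3, encodes a protein that triggers apoptosis downstream of p53, mTerc is the RNA template of telomerase, and G3 denotes the third generation of telomerase-deficient breeding, through which telomeres shorten. WT and Puma-/- cells went through the same kind of irradiated hosts, and all 4 genotypes could hold cells of the host that survived irradiation. Magnetic depletion removed cells carrying Ter-119 among other lineage antigens, and so most maturing erythroid cells. Nothing in the labels says whether the libraries of a genotype came from separate animals, so p-values measure only the spread between these libraries.

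In erythroid cells the first and rate-limiting step, the joining of glycine and succinyl-CoA, is carried out by Alas2, with glycine brought into the mitochondrion by Slc25a38. Alad, Uros and Urod then build and trim the ring in the cytosol, Cpox and Ppox oxidise it in the mitochondrion, and Fech inserts the iron that Slc25a37 (mitoferrin 1) imports. In other tissues the first step falls to the housekeeping isoenzyme Alas1. Alas2 is known as a target of GATA1, the factor that directs erythroid genes, and the later enzymes are made at a basal level in all cells and at higher levels in erythroblasts.

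The 250 bases before the RefSeq start site on GRCm38.p6 are shown for 3 members: Alas2 and Cpox, which of the members with a promoter entry were highest relative to the other libraries in replicate 2 labelled G3 mTerc-/-Puma-/-, and Urod, which was least so. Alas2 lay at chrX:150547167-150547416 on the plus strand, Cpox at chr16:58669958-58670207 on the plus strand and Urod at chr4:116994414-116994663 on the minus strand. Sequences run 5′ to 3′ toward the start site, and capitals mark GATAA on either strand (printed as TTATC where it lies on the opposite strand).
Alas2: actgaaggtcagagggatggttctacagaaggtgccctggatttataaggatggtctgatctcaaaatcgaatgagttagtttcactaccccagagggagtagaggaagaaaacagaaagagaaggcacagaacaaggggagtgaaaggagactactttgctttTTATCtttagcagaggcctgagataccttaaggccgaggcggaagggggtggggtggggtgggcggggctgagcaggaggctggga
Cpox: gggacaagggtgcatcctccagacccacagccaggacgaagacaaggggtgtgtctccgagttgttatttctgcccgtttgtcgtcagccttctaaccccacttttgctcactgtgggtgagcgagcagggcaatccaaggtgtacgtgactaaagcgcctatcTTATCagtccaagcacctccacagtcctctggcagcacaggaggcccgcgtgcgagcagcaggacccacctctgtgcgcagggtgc
Urod: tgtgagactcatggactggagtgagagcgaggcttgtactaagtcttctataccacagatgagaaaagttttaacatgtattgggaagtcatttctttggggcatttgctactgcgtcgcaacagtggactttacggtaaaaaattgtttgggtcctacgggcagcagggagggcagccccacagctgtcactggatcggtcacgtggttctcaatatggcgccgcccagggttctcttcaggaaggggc
The Alas2 window held 1 GATAA match, beginning 86 bases before the start, and the Cpox window also held 1, at the same distance of 86 bases. The Urod window held 0.

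Among the members, 7 of 9 had a RefSeq promoter window read here, in 9 windows since Alad and Uros have 2 starts each. Windows of members on chromosome 18, where Fech lies, were left out, whereas the shares over all windows had no such exclusion. GATAA was found on either strand in 3 windows (Alas2, Cpox and 1 start of Uros), against 22.6% of all 32851 windows of that length. CCNCNCCC, the CACCC box bound by KLF1-type factors, was found on either strand in 5 windows of 4 members (Alas2, Alad, Uros and Slc25a38), against 45.9% of all windows. The Alas2 window held 4 such matches, some of which overlapped one another but none the GATAA match. CAGTGN, the loop of an iron-responsive element, was searched on the given strand in the 50 bases after the start and found in 1 window of Alad, against 7.08% of all windows. These are letter matches only, and a missing match says nothing beyond these windows.

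Libraries were deep, with 102790519 to 158367059 counted reads each. Comparisons used 14 libraries, without replicate 2 labelled G3 mTerc-/-Puma-/-, because the study's RNA sequencing heatmaps do not draw it. That library also stood apart in its levels, and results are given with it where it changes them. The targeted genes were examined first. Terc had 7 to 17 counts in WT, 4 to 11 in Puma-/-, and 0 to 1 in both G3 groups. Bbc3 had 1043 to 2659 counts in WT and 557 to 768 in Puma-/-, but 1724 to 2717 in the 4 libraries with the G3 mTerc-/-Puma-/- label, against 1261 to 2462 in G3 mTerc-/-Puma+/+. The Puma part of that label was therefore not borne out by Bbc3 counts, and these samples are called the libraries bearing the G3 mTerc-/-Puma-/- label throughout. Sex also differed between groups, since Ddx3y, a Y-linked gene, was at 0.018 to 0.045 normalized CPM (counts scaled to a common library total) in Puma-/-, 21.4 to 43.2 in WT, 43.5 to 48.4 in G3 mTerc-/-Puma+/+ and 2.91 to 46.1 in libraries bearing the G3 mTerc-/-Puma-/- label. Xist, a mark of female cells, was at 464 to 861 normalized CPM in Puma-/-, 1.73 to 419 in WT, 0.174 to 89.4 in G3 mTerc-/-Puma+/+ and 0.388 to 669 under the G3 mTerc-/-Puma-/- label. Several libraries held both marks, such as WT replicate 1 with Xist at 419 and Ddx3y at 21.4. Eif2s3y, another Y-linked gene, had 499, 758, 762 and 978 counts in replicates 1 to 4 labelled G3 mTerc-/-Puma-/-. Ddx3y had 458, 4522, 5221 and 544 counts there, so the Y-linked genes disagreed in replicates 2 and 3. In G3 mTerc-/-Puma+/+ Eif2s3y had 4775 to 6507 counts and Ddx3y 4699 to 5830. With Xist as a covariate edgeR called 0 members in each comparison, and 18 in place of 152 genes between G3 mTerc-/-Puma+/+ and Puma-/-.

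The levels of the members were compared first, per kilobase of exon since genes differ in length. The order of medians over the 14 libraries was Alad (21.4 CPM per kb), Urod (21.2), Slc25a37 (16.2), Ppox (13.03), Slc25a38 (10.7), Uros (4.76), Cpox (4.59), Fech (2.38) and Alas2 (0.641). This order depends on the length used, all annotated exons of a gene joined, which was 13838 bases for Fech and 1871 for Alad. Without division by length, median normalized CPM ran Slc25a37 (97.3), Ppox (58.8), Urod (54.9), Alad (39.95), Fech (33.0), Cpox (30.6), Slc25a38 (29.5), Uros (17.0) and Alas2 (1.54). The ranges of Alad (18.05 to 24.2) and Urod (18.3 to 24.4) overlapped almost wholly, as did those of Uros (3.79 to 5.76) and Cpox (4.36 to 5.60). Slc25a37 (14.6 to 18.5) and Ppox (11.9 to 14.6) met only at their ends. Alas1, the housekeeping isoenzyme, stood above all of them at a median of 63.7 CPM per kb. By these medians Alas2 was the least expressed member, although in replicate 1 of the G3 mTerc-/-Puma-/- label it reached 3.85 CPM per kb, above all 14 values of Fech, and in replicate 2 of that label 24.04, above Fech (5.43), Uros (12.7), Cpox (13.1) and Slc25a38 (18.8). Without division by length, Alas2 in that replicate 1 (9.24 normalized CPM) lay below the lowest value of Fech (27.7). In replicate 2 it (57.8) lay above Uros (45.3) and Slc25a38 (51.7) but below Fech (75.1) and Cpox (87.3).

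**Figure D1:**
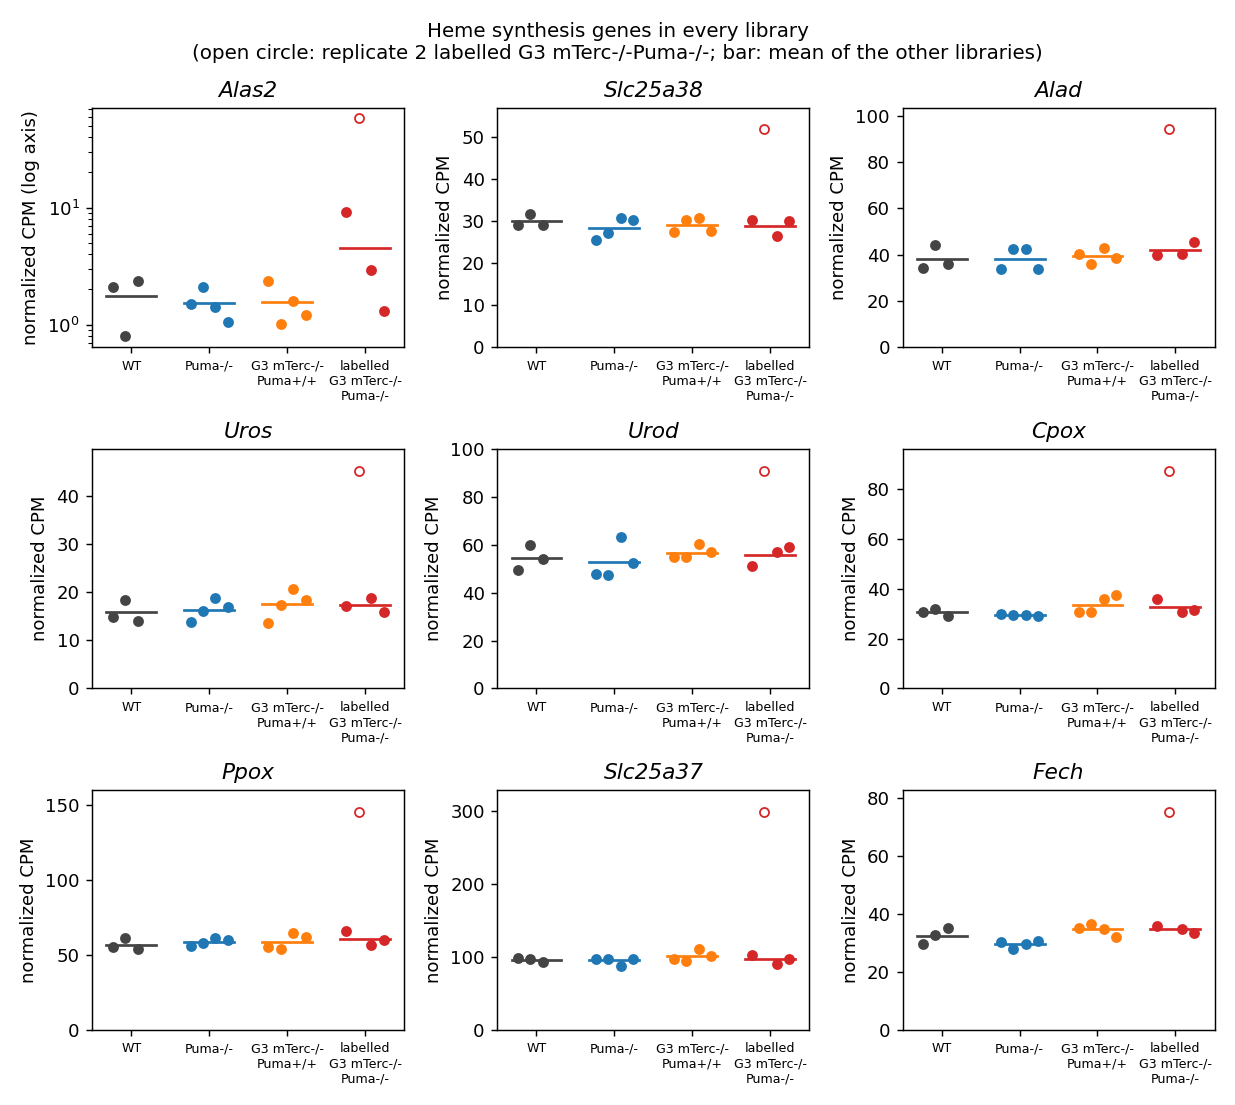
Each panel plots the normalized CPM of 1 heme gene in all 15 libraries by genotype (Alas2 on a log axis, the others from 0), with a bar at the mean of the libraries compared and an open circle for replicate 2 labelled G3 mTerc-/-Puma-/-. In all 9 panels the open circle lies above every other library, and only Alas2 varies widely among the rest.

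Alas2 (ENSMUSG00000025270, chromosome X, 150547375 to 150570638, plus strand, GRCm38) was low in most libraries. It measured 2.09, 0.796 and 2.34 normalized CPM in WT replicates 1 to 3, and 1.49, 2.10, 1.43 and 1.05 in Puma-/- replicates 1 to 4. In G3 mTerc-/-Puma+/+ it measured 2.38, 1.02, 1.59 and 1.22. In those bearing the G3 mTerc-/-Puma-/- label it measured 9.24, 57.8, 2.96 and 1.31. Replicates 1 and 2 of that label stood above all 11 other-genotype libraries, as did replicate 3, whereas replicate 4 lay within their range. Over 14 libraries Alas2 thus spanned 11.6-fold, and each other member spanned 1.23-fold to 1.52-fold.

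Fitted differences of Alas2 followed this spread. Between libraries bearing the G3 mTerc-/-Puma-/- label and Puma-/- its log2 fold change was 1.55 ± 0.54 (SE), a 2.93-fold difference with a 95% interval of 1.31 to 6.54, but the adjusted p was 0.411 (edgeR's quasi-likelihood test, unadjusted p = 0.0126). The corresponding value was 1.53 ± 0.54 against G3 mTerc-/-Puma+/+ (adjusted p = 0.537 with edgeR) and 1.36 ± 0.59 against WT (adjusted p = 0.854 with edgeR). Without replicate 1 labelled G3 mTerc-/-Puma-/- these 3 values were 0.47, 0.46 and 0.29, so the differences rested on that library. Puma-/- and G3 mTerc-/-Puma+/+ differed from WT by -0.19 ± 0.54 and -0.17 ± 0.54, with intervals from 0.391-fold to 1.98-fold and from 0.395-fold to 2.00-fold. Differences of Alas2 within those bounds were not excluded by these intervals.

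With all 15 libraries, the same 3 differences of Alas2 from the other genotypes were 3.56 ± 0.91 against Puma-/-, 3.54 ± 0.91 against G3 mTerc-/-Puma+/+ and 3.37 ± 1.02 against WT on the log2 scale. edgeR called it in 0 of these 3 comparisons, with adjusted p of 0.188, 0.230 and 0.390. This is against 0.308%, 0.0313% and 0.0418% of all genes called in them. DESeq2, tried on all 15 libraries after the data were seen, called Alas2 and no other member in each of the 3, with adjusted p of 0.00592, 0.0080 and 0.0379. It called 1.29%, 1.56% and 1.08% of all genes there, whereas limma-voom on the same 15 libraries called 0 members. On 14 libraries neither DESeq2 nor limma-voom called Alas2.

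Slc25a38 (ENSMUSG00000032519, chromosome 9, 120110374 to 120124504, plus strand), the glycine carrier, varied little. It measured 28.9 to 31.6 normalized CPM in WT, 25.4 to 30.6 in Puma-/-, 27.4 to 30.8 in G3 mTerc-/-Puma+/+ and 26.4 to 30.2 in the 3 libraries labelled G3 mTerc-/-Puma-/- that were compared. All genotypes overlapped, and its 6 pairwise log2 fold changes lay between -0.064 and 0.023. The ubiquitous first-step enzyme Alas1 (ENSMUSG00000032786, chromosome 9, 106233455 to 106248654, minus strand), which is not a member, ranged from 312 to 454 normalized CPM over the same 14 libraries.

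The ratio of Alas2 to Alas1 was computed as a difference of log2 CPM with a prior count of 2. It averaged -7.81 ± 1.06 (WT, n = 3), -7.99 ± 0.58 (Puma-/-, n = 4), -8.08 ± 0.71 (G3 mTerc-/-Puma+/+, n = 4) and -6.86 ± 1.52 (labelled G3 mTerc-/-Puma-/-, n = 3), each ± SD. On this scale, on which the prior count slightly lowers the factor, Alas1 exceeded Alas2 by 138 to 522 times in the 11 libraries of the other genotypes. In those bearing the G3 mTerc-/-Puma-/- label the same factor was 38.3, 9.18, 131 and 310 in replicates 1 to 4. Replicates 1 and 2 stood apart from the others by this measure. The lowest p over the 6 pairs of genotypes was 0.200 (exact two-sided permutation test, difference of 1.23 against G3 mTerc-/-Puma+/+, adjusted p = 0.771 over the 6 pairs, smallest p possible 0.0286). The comparison with WT, with 3 libraries on each side, could not go below p = 0.100 in that exact test. The difference from G3 mTerc-/-Puma+/+ was 0.426 without replicate 1 labelled G3 mTerc-/-Puma-/- and 1.94 without replicate 4 of that label. With all 15 libraries it was 2.14 (exact permutation test, p = 0.114, adjusted p = 0.457).

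The cytosolic enzymes were close to level across genotypes. Alad (ENSMUSG00000028393, chromosome 4, 62509169 to 62519918, minus strand), which joins pairs of aminolevulinic acid, gave means of 38.0 ± 5.4 (WT, n = 3), 38.1 ± 4.9 (Puma-/-, n = 4), 39.3 ± 2.8 (G3 mTerc-/-Puma+/+, n = 4) and 41.8 ± 3.0 normalized CPM (labelled G3 mTerc-/-Puma-/-, n = 3), each ± SD. Uros (ENSMUSG00000030979, chromosome 7, 133686243 to 133710072, minus strand), which closes the ring, measured 15.8 ± 2.3, 16.4 ± 2.1, 17.5 ± 2.9 and 17.3 ± 1.4 normalized CPM in the same order. Urod (ENSMUSG00000028684, chromosome 4, 116989965 to 116994413, minus strand), which removes carboxyl groups from its side chains, measured 54.5 ± 5.3, 52.7 ± 7.4, 56.8 ± 2.5 and 55.8 ± 4.0. All pairs of genotypes overlapped for these 3 enzymes. Uros had the widest interval among the members other than Alas2, from 0.787-fold to 1.39-fold over the 6 pairs, so larger differences than these were outside the intervals of all 8 of them on 14 libraries. With all 15 libraries the bounds of these 8 members widened to 0.618-fold and 2.502-fold, both from Slc25a37.

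Of the mitochondrial oxidation enzymes, Cpox showed a separation between genotypes that did not pass the test. Cpox (ENSMUSG00000022742, chromosome 16, 58670292 to 58717636, plus strand) measured 30.7, 31.6 and 29.0 normalized CPM in WT, and 29.8, 29.3, 29.3 and 29.0 in Puma-/-. It measured 30.8, 30.4, 35.9 and 37.3 in G3 mTerc-/-Puma+/+, and 35.8, 87.3, 30.5 and 31.3 in libraries bearing the G3 mTerc-/-Puma-/- label. All libraries of both G3 groups lay above all 4 Puma-/- libraries, while WT overlapped with each group. The log2 fold change was 0.19 ± 0.079 between G3 mTerc-/-Puma+/+ and Puma-/- (edgeR, unadjusted p = 0.0338, adjusted p = 0.250), and 0.13 ± 0.085 between libraries bearing the G3 mTerc-/-Puma-/- label and Puma-/- (adjusted p = 0.738). The latter was 0.059 without replicate 1 labelled G3 mTerc-/-Puma-/-. With all 15 libraries it was 0.65 ± 0.27 (edgeR, unadjusted p = 0.0282, adjusted p = 0.556). Ppox (ENSMUSG00000062729, chromosome 1, 171275990 to 171281186, minus strand), which performs the next oxidation, measured 53.8 to 66.1 normalized CPM over the 14 libraries, with all genotypes overlapping.

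**Figure D2:**
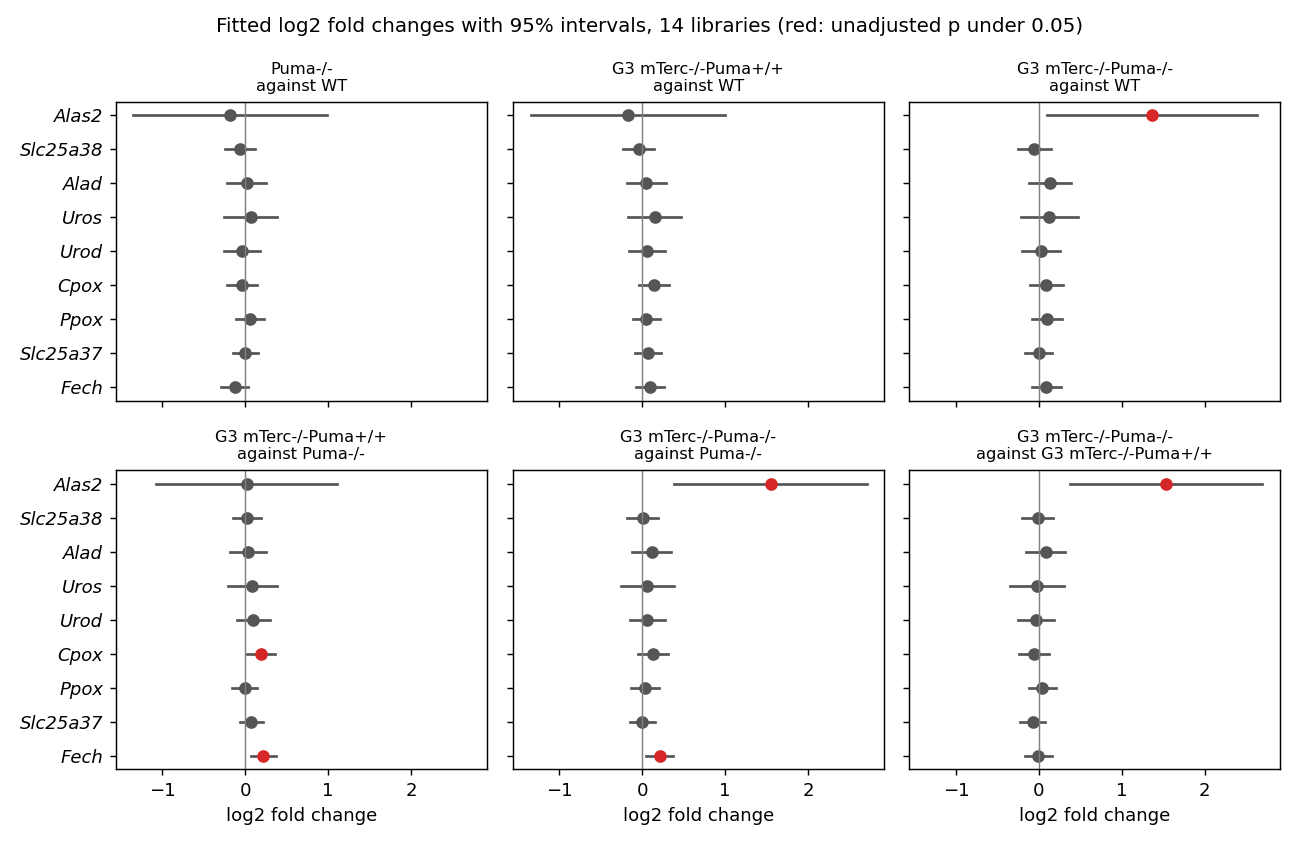
Points are log2 fold changes of the 9 heme genes in 6 comparisons of genotypes over 14 libraries, bars are 95% intervals, and red points have an unadjusted p under 0.05. Alas2 has the widest intervals, and the largest estimate among the other 8 is 0.22, that of Fech between G3 mTerc-/-Puma+/+ and Puma-/-.

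Fech, the last enzyme, behaved like Cpox in this respect. Fech (ENSMUSG00000024588, chromosome 18, 64452914 to 64490251, minus strand) measured 29.5, 32.7 and 35.1 normalized CPM in WT, and 30.3, 27.7, 29.4 and 30.6 in Puma-/-. It measured 35.2, 36.4, 34.9 and 31.999 in G3 mTerc-/-Puma+/+, and 35.7, 75.1, 34.8 and 33.3 in libraries bearing the G3 mTerc-/-Puma-/- label. The lowest library of either G3 group lay above the highest Puma-/- library, and WT overlapped with all. The log2 fold change from Puma-/- was 0.22 ± 0.071 in G3 mTerc-/-Puma+/+ (edgeR, unadjusted p = 0.00778, adjusted p = 0.142) and 0.21 ± 0.076 in libraries bearing the G3 mTerc-/-Puma-/- label (unadjusted p = 0.0148, adjusted p = 0.422). With all 15 libraries the latter was 0.59 ± 0.21 (edgeR, unadjusted p = 0.0135, adjusted p = 0.447). Both comparisons share the Puma-/- libraries. Over the alternatives on 14 libraries, the adjusted p of the first ran from 0.0505 to 0.545. Of the 9 members, Cpox and Fech were the 2 with all G3 mTerc-/-Puma+/+ libraries above all Puma-/- libraries, against 4.94% of all genes, and likewise for the 3 compared libraries of the G3 mTerc-/-Puma-/- label, against 3.97% of all genes.

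Slc25a37 (ENSMUSG00000034248, chromosome 14, 69241848 to 69285112, minus strand), the iron carrier of the erythroid mitochondrion, varied least by its coefficient of variation, 5.83% over the 14 libraries. It measured 92.9 to 98.0 normalized CPM in WT, 87.9 to 97.6 in Puma-/-, 94.1 to 111 in G3 mTerc-/-Puma+/+ and 89.7 to 102.8 in the 3 compared libraries of the G3 mTerc-/-Puma-/- label. All genotypes overlapped.

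Counted over all comparisons, edgeR called 0 of 9 members at an adjusted p of 0.05 in each one. The share of all genes called was 0.079% for Puma-/- against WT, 0.0369% for G3 mTerc-/-Puma+/+ against WT and 0.0632% for libraries bearing the G3 mTerc-/-Puma-/- label against WT. It was 0.801% for G3 mTerc-/-Puma+/+ against Puma-/-, 0.306% for libraries bearing the G3 mTerc-/-Puma-/- label against Puma-/-, 0.0738% between both G3 groups and 0.0527% for the interaction of mTerc and Puma. The interaction takes the Puma part of the G3 mTerc-/-Puma-/- label as given, which Bbc3 counts did not bear out. With so few genes called anywhere, a count of 0 among 9 is near the background. An unadjusted p under 0.05 was reached by 0, 0 and 1 members in the comparisons with WT, by 2 and 2 in those with Puma-/-, by 1 between both G3 groups and by 1 in the interaction. Of all 18983 genes, 1926, 733 and 1035 reached it in the comparisons with WT, 3255 and 1598 in those with Puma-/-, 1180 between both G3 groups and 936 in the interaction, against which the counts of members are to be read. On the same 14 libraries, DESeq2 and limma-voom also called 0 members in all 7 comparisons. The median log2 fold change over the 9 members was 0.073 for G3 mTerc-/-Puma+/+ against Puma-/-, where 8 of 9 were higher, and 0.064 for libraries bearing the G3 mTerc-/-Puma-/- label against Puma-/-, where 9 of 9 were higher. The medians over all genes in these were near 0, at -0.00049 and 0.0092. Both medians of the members moved with single libraries. The first was 0.0057 (5 of 9 higher) without G3 mTerc-/-Puma+/+ replicate 3 and 0.105 (9 of 9) without replicate 2 of that genotype. The second was 0.020 (7 of 9) without Puma-/- replicate 1 and 0.14 (8 of 9) without Puma-/- replicate 3. Without replicate 1 labelled G3 mTerc-/-Puma-/- it was 0.072, with 6 of 9 higher. Between both G3 groups the median of the members was -0.016, beside -0.015 over all genes, with 3 of 9 members higher. With all 15 libraries the medians of the members for the G3 mTerc-/-Puma-/- label were 0.57 against Puma-/-, 0.48 against G3 mTerc-/-Puma+/+ and 0.54 against WT, with 9 of 9 higher in each, and 0.014, -0.016 and 0.0037 over all genes. In these 3 comparisons, in the same order, 4, 1 and 1 members reached an unadjusted p under 0.05 with edgeR. Of all 19146 genes tested there, 1432, 1947 and 1684 reached it.

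The library left out of these fits, replicate 2 labelled G3 mTerc-/-Puma-/-, held the highest level of each of the 9 members among all 15 libraries. Of all genes tested, 21.9% were highest there. Relative to the median of the other 14 libraries, Alas2 was 37.5-fold higher, Slc25a37 3.07-fold (299 normalized CPM), Cpox 2.85-fold, Uros 2.66-fold, Ppox 2.48-fold (146), Alad 2.35-fold (94.1), Fech 2.28-fold, Slc25a38 1.76-fold (51.7) and Urod 1.66-fold (91.0). Alas1 was 1.35-fold higher. Over all genes the median of this ratio was 0.988, and 10% of genes were above 2.44. These values come from 1 library and carry no test.

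**Figure D3:**
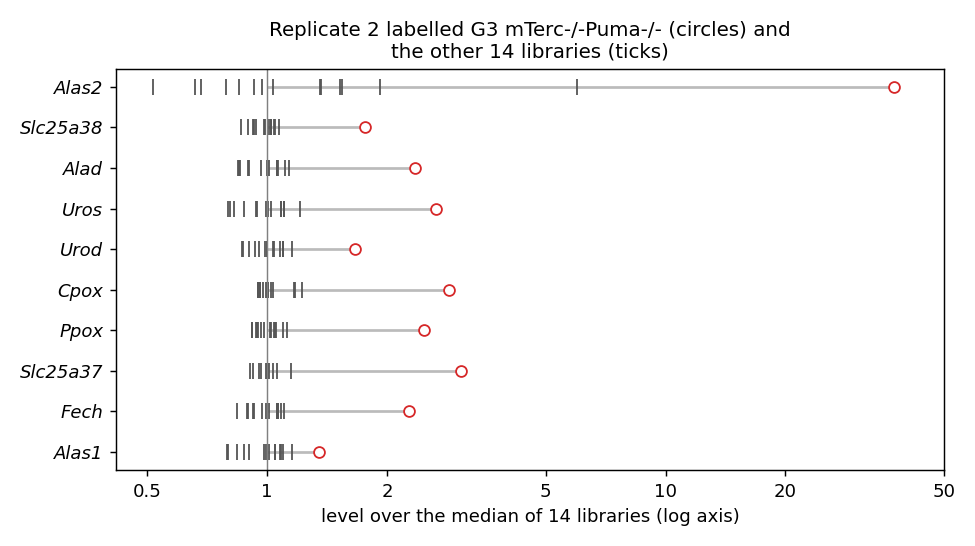
For each heme gene and Alas1, ticks give the level in 14 libraries and the circle that in replicate 2 labelled G3 mTerc-/-Puma-/-, both divided by the median of the 14, on a log axis. The circle lies at 1.66 to 3.07 for 8 members and at 37.5 for Alas2.

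The erythroid content of the libraries was read from 13 markers, such as Slc4a1 (band 3), spectrins and globins. Of the 13, 0 were at a level of 0 in every library. Their summed level was 70.6 to 110 normalized CPM in WT, 54.6 to 98.8 in Puma-/- and 40.5 to 118 in G3 mTerc-/-Puma+/+. In those bearing the G3 mTerc-/-Puma-/- label it was 331, 2141, 167 and 81.5 in replicates 1 to 4. Replicate 2 thus held 22.6 times the median of the others, with each of the 13 markers at its highest there, and replicate 1 was second. In bulk RNA a larger share of erythroid cells and more RNA per erythroid cell cannot be told apart. In the same replicate 2, the summed levels of granulocyte-monocyte progenitor markers (27306 normalized CPM against 13906 to 26444), late neutrophil markers (4477 against 351 to 3479) and macrophage markers (346 against 78.2 to 270) were also highest, but not each marker. Of 8 genes on each of these lists, 5, 4 and 3 were highest there and 2, 0 and 1 lowest. Those lowest were Csf1r (0.094 times the median of the other libraries) and Irf8 (0.039) among the progenitor markers and Adgre1 (0.31) among the macrophage markers. The sums of stem and early progenitor markers (314 against 387 to 664) and of mast cell and basophil markers (1031 against 1306 to 4041) were lowest there. Of the 8 stem and early progenitor genes 2 were highest and 2 lowest, and of the 6 mast cell and basophil genes 0 and 3. The part of these cell types in the members' levels was not tested.

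Over the 14 libraries Alas2 correlated with the erythroid markers (Pearson r = 0.88, adjusted p = 0.0014 over the 9 members, Spearman rho = 0.85, adjusted p = 0.0021, two-sided permutation tests). The slope was 1.14 log2 units of Alas2 per log2 unit of the marker mean. Centred within genotypes r was 0.84, and without the 2 libraries farthest from the median of the markers (replicate 1 labelled G3 mTerc-/-Puma-/- and replicate 2 of G3 mTerc-/-Puma+/+) it was 0.73. With the 4 globins left out of the markers r was 0.78 (adjusted p = 0.018, permutation test), and 0.48 without those 2 libraries. The other 8 members gave r of -0.11 to 0.43, and the lowest adjusted p among them was 0.45 (permutation test). The difference between these correlations was not tested. With replicate 2 labelled G3 mTerc-/-Puma-/- added, all 9 members passed by Pearson's r (0.72 to 0.97), but of the 8 others 0 passed by Spearman's rho (adjusted p of 0.25 to 0.76, permutation tests). Those relations of the other 8 rest on that library, since without it and replicate 1 of the same label their r was -0.24 to 0.37.

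**Figure D4:**
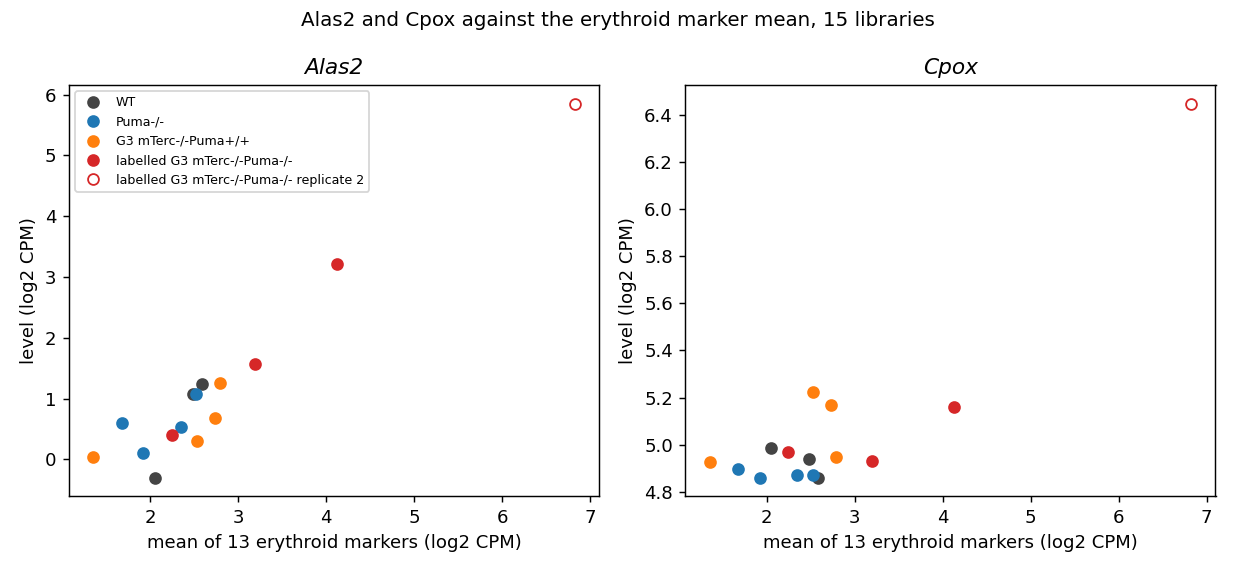
Each point is a library, with the mean log2 CPM of 13 erythroid markers on the x axis and the log2 CPM of Alas2 or Cpox on the y axis, coloured by genotype. Alas2 climbs with the markers across the libraries (r = 0.88 over the 14 filled points), and Cpox is set apart by the open circle of replicate 2 labelled G3 mTerc-/-Puma-/- alone.

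The genes whose pattern was most like Alas2 over the 14 libraries, picked after its values were seen, included band 3 and 4 globins. They were Slc4a1 (Pearson r = 0.96), Hba-a1 (0.96), Hbb-bs (0.95), Ypel4 (0.94), Hba-a2 (0.93), Hbb-bt (0.92), Abcc3 (0.90) and Apol8 (0.89), among 18980 genes ranked by symbol. The other members gave r of -0.38 (Urod) to 0.24 (Fech) with Alas2. Likeness to the mean scaled level of all 9 members was led by Ptdss2 (0.83), Nxpe2 (0.83), Atp7b (0.80), 9130230N09Rik (0.79), Tmem120b (0.79), Chga (0.78), Folr1 (0.77) and Gml2 (0.75). Among the members themselves, the closest pairs were Cpox and Slc25a37 (0.68), Uros and Ppox (0.67) and Cpox and Ppox (0.65), and the most opposed was Alas2 and Urod. These are correlations over 14 libraries that share scaling and depth, given as descriptions.

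The surrounding pathway was read from lists of 12 mitochondrial partners of heme synthesis, 13 genes of iron-sulfur cluster assembly, 16 of iron uptake, storage and sensing, 10 of heme export, import and breakdown and 15 regulators. edgeR called 0 genes of these lists in all 7 comparisons, with up to 5 genes of a list at an unadjusted p under 0.05 in any of them. In the comparison of G3 mTerc-/-Puma+/+ with Puma-/-, an unadjusted p under 0.05 was reached by 3, 2, 5, 1 and 4 of them in that order, where 3255 of all 18983 genes reached it. Among them was Ireb2, an iron sensor (log2 fold change 0.29 ± 0.063, adjusted p = 0.0524 with edgeR). Medians were 0.14, 0.091, 0.13, 0.021 and -0.10 in that comparison. Gata1 itself ranged from 7.52 to 22.5 normalized CPM over the 14 libraries, and Klf1 from 3.09 to 11.9. Markers of other cells did pass: of 8 megakaryocyte markers, 4 fell in G3 mTerc-/-Puma+/+ and 6 in libraries bearing the G3 mTerc-/-Puma-/- label relative to Puma-/-, with Gp1bb, a platelet receptor subunit, lower by log2 fold changes of -1.53 ± 0.30 and -2.14 ± 0.34 (adjusted p = 0.0429 and 0.0155 with edgeR). Of all genes 0.801% and 0.306% were called in this pair of comparisons, which share the Puma-/- libraries, and with Xist as a covariate 18 in place of 152 and 33 in place of 58 genes were called. The part of megakaryocytic cells in the values of Cpox and Fech was not tested.

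In replicate 2 labelled G3 mTerc-/-Puma-/-, several genes of these lists were also high. Relative to the median of the other 14 libraries, the mitochondrial transporter Abcb10 was 2.44-fold higher, Fam210b 2.81-fold, the transferrin receptor Tfr2 3.13-fold, the iron hormone Erfe 11.7-fold, the heme oxygenase Hmox1 2.68-fold, biliverdin reductase Blvrb 3.98-fold, Gata1 3.35-fold and Klf1 7.11-fold. Other listed genes lay below that median there, as Clpx was at 0.920 times the median, Slc25a28 (mitoferrin 2) at 0.871 and Flvcr1 at 0.784. Among the regulators Jak2 was at 0.464, Stat5b at 0.652 and Bach1 at 0.676 times the median. Of the 12 mitochondrial partners 4 were highest there and 3 lowest, of the 13 iron-sulfur genes 4 and 2, of the 16 iron genes 6 and 4, of the 10 genes of heme export, import and breakdown 7 and 2, and of the 15 regulators 7 and 6.

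Overlap with genes of the opposite strand was checked, since the strand setting of the counting is not given in the sources used here. Exons of the Alas2 gene shared 15.5% of their bases with genes of the other strand, chiefly Apex2, and those of Ppox 17.5% with B4galt3. If reads were counted without strand, those stretches could not be told apart. Apex2 stood at 13.1 to 17.7 normalized CPM over the 14 libraries and at 14.6 in replicate 2 labelled G3 mTerc-/-Puma-/-, and B4galt3 at 20.8 to 26.8 and at 24.1. Their part in the members' counts was not tested. Cpox and Slc25a37 shared 3.06% and 6.33% of their exons, and the other 5 members shared 0.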

How the data were processed

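RNA of Lin- BM cells was prepared as poly(A)-selected stranded paired-end libraries. The authors deposited raw read counts per gene, not normalized, made after adapter trimming with Trimmomatic 0.38 by STAR 2.5.2b on mm10 (GRCm38). The annotation release and the strand setting of the counting are not given in the sources used here. Symbols, positions and exon lengths come from GENCODE vM21, and promoters from RefSeq (GRCm38.p6). The members and gene lists were chosen with earlier results of these data known.

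Counts were filtered with filterByExpr (18983 of 45706 genes kept) and scaled by TMM. All 4 genotypes entered 1 fit of 14 libraries with edgeR 4.0.16 (R 4.3.3), and its quasi-likelihood test was adjusted by Benjamini-Hochberg over all genes at 0.05. Normalized CPM used TMM factors of all 15 libraries, and log2 CPM a prior count of 2. A fold change is from the fit. The common biological coefficient of variation was 0.251. Library totals of 102790519 to 158367059 counts left Alas2 with 85 to 6793 counts a library and each other member with 1503 to 35121. Replicate 2 labelled G3 mTerc-/-Puma-/- was left out because the study's heatmaps do not draw it, although its methods state that no data were left out.

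Ratios were tested by exact permutation, and correlations by 100000 permutations in Python 3.11.15. Alternatives were all 15 libraries, library size alone, DESeq2 1.42.0, limma-voom (limma 3.58.1), no filter, at least 1 CPM in 3 libraries, the replicate number as a block, the compared genotypes alone, Xist as a covariate and each library left out. DESeq2 and limma-voom on 15 libraries were added after the data were seen. Genes named were the members, Alas1, the targeted and sex genes, listed genes past the test (up to 5 a list and comparison, by p), and the 8 genes most like the members' mean. Other listed genes, the genes overlapping members and those most like Alas2 alone were chosen after their values were seen. T and NK cell markers (0 called) and B lymphoid markers (1, 1 and 2 called in the last 3 pairs of genotypes) were also read.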

Additional observations from a re-analysis of the deposited data

Results flagged for a closer look

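Each of the 9 members was higher in replicate 2 labelled G3 mTerc-/-Puma-/-, which the comparisons did not use, than in any WT library or any other library: Alas2 at 57.8 normalized CPM, Alad at 94.1, Uros at 45.3, Urod at 91.0, Cpox at 87.3, Ppox at 146, Fech at 75.1, Slc25a37 at 299 and Slc25a38 at 51.7. Within the 4 libraries of that label, this library's gap to the next one relative to the group's range exceeded Dixon's 95% critical value for 4 samples for 8 of these 9. Urod, with the lowest share at 0.805, was the exception. This holds for normalized CPM on a linear scale. For the log2 ratio of Alas2 to Alas1 the share was 0.406, below that value. Among the other groups, Slc25a37 in Puma-/- replicate 3 stood below its group at 87.9 normalized CPM, with the next library at 97.4. Of 30 groups examined 9 passed, where chance passes about 1 in 20 groups, and the 8 in 1 library are not independent of each other. The 13 erythroid markers were each highest in that library, as were the summed levels of granulocyte-monocyte progenitor, late neutrophil and macrophage markers (5, 4 and 3 of 8 genes, with 2, 0 and 1 lowest), and their part in it was not tested.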

How the results depend on the processing

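Over all 174 counts of members called under alternatives, 3 differed from 0. With DESeq2 on all 15 libraries, an alternative added after the data were seen, the count was 1 for libraries bearing the G3 mTerc-/-Puma-/- label against WT, 1 against Puma-/- and 1 against G3 mTerc-/-Puma+/+. The member was Alas2. The correlations of the other 8 members with the erythroid marker mean passed only with all 15 libraries, with r of 0.85 for Alad, 0.81 for Uros, 0.90 for Cpox, 0.90 for Ppox, 0.86 for Fech and 0.87 for Slc25a37, and with the sign turned for Urod (0.72) and Slc25a38 (0.79). Spearman's rho did not pass for these 8 there (lowest adjusted p = 0.25, permutation test). The Alas2 correlation passed in each alternative run (r of 0.78 without globins to 0.97). No ratio of Alas2 to Alas1 passed, with 8 of 54 values changing sign (lowest adjusted p = 0.200, exact permutation test). Of 1566 fold changes under alternatives, 143 had another sign, 0 of them with an unadjusted p under 0.05 in either fit. At least 1 SE separated 122 of them from the values given, of which 107 came with all 15 libraries. Libraries that share a replicate number did not deviate together (correlations of -0.25 to 0.18 over 18 pairs), and with the replicate block 0 members were called, while genes called between G3 mTerc-/-Puma+/+ and Puma-/- went from 152 to 43 and between libraries bearing the G3 mTerc-/-Puma-/- label and Puma-/- from 58 to 21. DESeq2 on 14 libraries called 136, 46, 91, 996, 287, 172 and 64 genes in the 7 comparisons in the order of the report, in place of 15, 7, 12, 152, 58, 14 and 10, with 0 members among them. Over all alternatives these counts ran from 9 to 136, 1 to 46, 1 to 206, 15 to 996, 18 to 287, 2 to 298 and 5 to 64. With Xist as a covariate 0 members were called, and genes called between G3 mTerc-/-Puma+/+ and Puma-/- went from 152 to 18. Precision rests on 3 or 4 libraries a genotype, and Alas2, from 85 counts, is the member with the fewest reads.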
